A study of Mus musculus with 16 samples.

Results

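Mouse embryonic fibroblasts that were transfected with siRNAs against Bard1 and then reprogrammed for 6 days were compared with control cells of the same day. The members are the 2 siBard1 and the 2 non-targeting (nt) control libraries of day 6, out of 16 libraries in all, and the genes whose mean log2 CPM (CPM, read counts scaled to library size) over the 16 libraries was at least 0. These are 14028 of the 18990 genes in the deposited table. Primary wild-type BL6 fibroblasts were transduced with lentiviruses for rtTA and for a doxycycline-inducible cassette of Oct4, Sox2, Klf4 and c-Myc (OSKM), and were reverse transfected with pooled siRNAs at 40 nM and re-plated a day later. OSKM was then switched on with doxycycline in a medium that also held CHIR, an ALK5 (TGF-beta receptor) inhibitor, ascorbic acid and LIF. Every group, the nt control included, carried the viruses and this medium, and the cells were reprogrammed at passage 2. The groups differ in the siRNA, which was non-targeting in nt and directed at Bard1, Brca1 or Wdr5 in siBard1, siBrca1 and siWdr5. RNA was taken at day 3 and at day 6, with 2 libraries per group and day that the study describes as independent experiments. Transient siRNA depletion is partial and passes with time, and the methods describe no sort before these libraries, so each holds all cells of its dish.

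BARD1 is the obligate partner of BRCA1. Through their RING domains they form a heterodimer that acts as an E3 ubiquitin ligase on histone H2A, and the complex serves the repair of double-strand breaks by homologous recombination. WDR5 is a shared subunit of complexes that methylate histone H3 at lysine 4. During OSKM reprogramming, fibroblasts pass early through a mesenchymal-to-epithelial transition (MET), in which contractile and matrix genes go down and cell junction genes such as Cdh1 and the claudins come up, before the pluripotency network is switched on.

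The listed Bard1 siRNAs are shown because the group is named for their target. The study's siRNA collection lists the following 2 for Bard1, and its methods describe pools of 3 per gene, so any further one is not analysed here. Which siRNAs were used in these libraries is not stated in the sources used here. Each line gives the antisense strand 5′ to 3′, with its seed (bases 2 to 8) in capitals.
Bard1 siRNA 1 antisense: aGAAGAUGugcucacaucctc
Bard1 siRNA 2 antisense: uUGUCGGUuuaucuugaggtc
In the GENCODE vM21 annotation of GRCm38, Bard1 lies on the minus strand of chromosome 1 (71027498 to 71103146). The 19-base target of siRNA 1 lies at chr1:71089475-71089493 in exon 2, and that of siRNA 2 at chr1:71088167-71088185 in exon 3, of the 11 exons of transcript Bard1-201. Both targets are coding sequence, and the 19 bases of either one occur in no annotated transcript of another gene (0 other genes).

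The day 6 libraries of nt held 11700453 and 11248043 reads, and those of siBard1 held 12943067 and 20085723 reads, so the deeper sampling was on the siBard1 side. Replicates differed beyond counting noise in all 8 groups. On the first principal component of the 8 day 6 libraries (43.6% of the variance), nt lay at -25.3 and -29.95, siBard1 at 5.46 and -8.64, siBrca1 at -11.3 and -1.52, and siWdr5 at 26.9 and 44.3. Replicate 1 of siBard1 thus lay farther from nt than replicate 2. Ribosomal RNA transcripts took 0.111% and 0.186% of the nt reads and 0.0230% and 0.0598% of the siBard1 reads, and mitochondrially encoded genes took 2.15% and 2.11% against 1.56% and 1.72%. The 13 fibroblast markers (13 of 13 tested, none at 0) summed to 5642 to 5886 CPM in nt and 8808 to 8906 CPM in siBard1. They did not all go one way, as 9 of the 13 were higher and Thy1 stood at 469.8 and 422.4 CPM in nt and 336.4 and 282.8 CPM in siBard1. Markers of macrophages (9.29 to 12.04 against 10.3 to 10.7 CPM in sum) and of endothelium (15.9 to 16.1 against 17.2 to 20.1 CPM) stayed low on both sides. In bulk RNA, fewer cells of a type cannot be told apart from less RNA per cell.

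The first question was whether Bard1 itself was still reduced. It was not detectably so at day 6. Bard1 stood at 11.3 and 14.01 CPM in nt (139 and 174 reads) and at 12.6 and 14.5 CPM in siBard1 (166 and 304 reads), so the groups overlapped. The log2-fold change was 0.11 (SE 0.20, 95% interval -0.34 to 0.55, limma adjusted p = 0.853), so a log2-fold change below -0.34 lies outside the interval. At day 3 the same transcript stood at 30.5 and 29.1 CPM in nt and 18.01 and 20.8 CPM in siBard1, a log2-fold change of -0.62 (limma adjusted p = 0.0422). The 2 days differed by 0.72 on the log2 scale, which did not pass the test (SE 0.29, limma adjusted p = 0.188). The nt level was itself lower at day 6 than at day 3 (log2-fold change -1.24, limma adjusted p = 0.000187). At day 3 Bard1 was also below nt in siBrca1 (14.4 and 9.07 CPM) and in siWdr5 (13.9 and 15.3 CPM). These values lie under those of siBard1, so the day 3 fall was not particular to siBard1. The transcript therefore does not check the siBard1 label at day 6, nor does it set siBard1 apart from the other knockdowns at day 3. What follows describes the libraries labelled siBard1. Brca1, the partner, stood at 33.2 and 42.6 CPM in nt and 41.3 and 41.5 CPM in siBard1 (log2-fold change 0.14), and Wdr5 at 91.8 and 98.1 against 89.2 and 112.1 CPM (log2-fold change 0.07). Neither passed the test (limma adjusted p = 0.711 and 0.853).

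**Figure D1:**
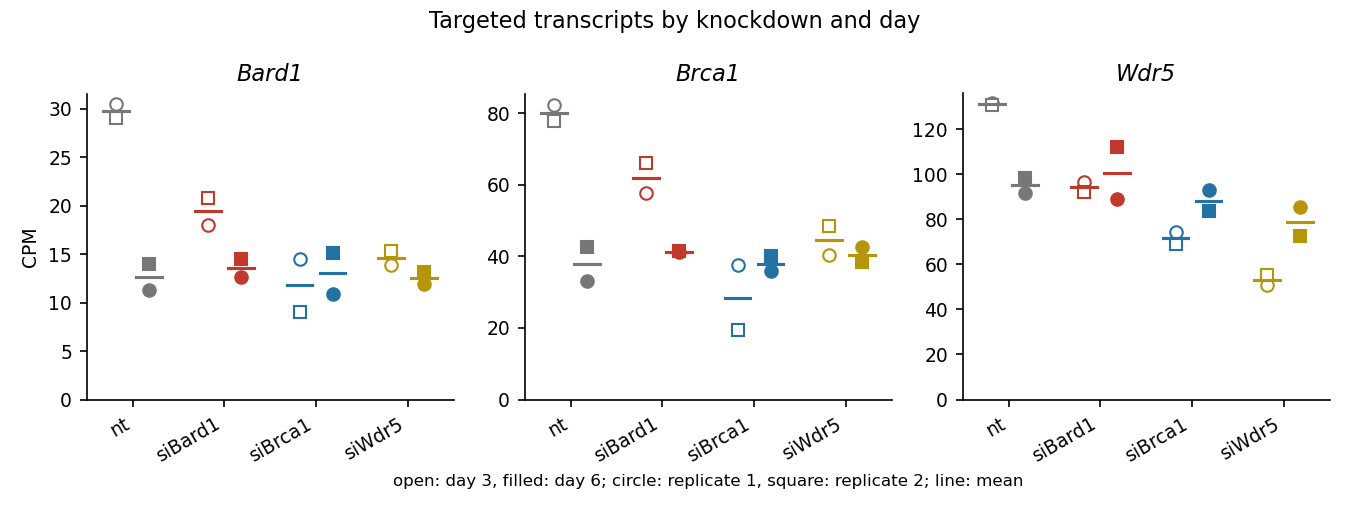
CPM of Bard1, Brca1 and Wdr5 in each library of the 4 siRNA groups at day 3 (open) and day 6 (filled), with circles for replicate 1, squares for replicate 2 and a line at the mean. In the Bard1 panel the siBard1 libraries lie below nt at day 3 (18.01 and 20.8 against 30.5 and 29.1 CPM), and those of siBrca1 and siWdr5 lie lower still. At day 6 both siBard1 and nt lie between 11.3 and 14.5 CPM.

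The second question was which genes differed between siBard1 and nt at day 6. A small set of 10 genes passed both thresholds (adjusted p below 0.05 and an absolute log2-fold change above 1), which is 0.0713% of the genes tested, and all 10 were higher in siBard1. They include Msx1 and Stat5a, which act in the nucleus, the matrix and adhesion genes Fbn2, Tgfbi, Flrt3 and Cdsn, the smooth muscle myosin Myh11, and the neuronal genes Map6, Stmn2 and Nmnat2. No gene was called lower (0 of 14028 by limma and 0 by limma-voom on the recovered reads), with 539 genes lower (3.84%) and 1369 higher (9.76%) at an unadjusted p below 0.05. Other models did make lower calls, 9 with all 16 libraries, 4 with a replicate block and 1 with only the 4 libraries of the 2 groups. The 2 siBard1 libraries both lay above both nt libraries for 34.2% of the genes and both below for 17.4%, and the median log2-fold change over all genes was 0.06. The count rests on single libraries. It was 0 without nt replicate 1 and 0 without nt replicate 2, 7 (1 of them lower) without siBard1 replicate 1, with 3 of the 10 among them, and 51 (3 of them lower) without siBard1 replicate 2, with 8 of the 10.

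Of the regulators, Stat5a had the smallest p of all genes. Stat5a encodes a transcription factor that is switched on by cytokine and growth hormone receptors and lies on chromosome 11 (100859351 to 100885169, plus strand). It stood at 68.4 and 61.9 CPM in nt and 163.3 and 170.6 CPM in siBard1, a log2-fold change of 1.36 (SE 0.13, limma adjusted p = 0.00954). Its neighbour Stat5b is near-identical in sequence, and how the read counter split shared reads is not given in the sources used here. Msx1, a homeobox repressor that BMP signals induce in many embryonic tissues, lies on chromosome 5 (37820485 to 37824583, minus strand). Its levels were 12.7 and 12.02 CPM in nt and 35.9 and 34.4 CPM in siBard1, a log2-fold change of 1.51 (SE 0.19, limma adjusted p = 0.0252). For both genes the 2 replicates of each group lay close together and the groups far apart.

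The matrix and adhesion genes Fbn2, Tgfbi, Flrt3 and Cdsn were higher in siBard1 than in nt as well. Fbn2, which encodes the microfibril protein fibrillin-2, had 169.8 and 146.3 CPM in nt and 358.6 and 468.2 CPM in siBard1 (log2-fold change 1.38, SE 0.17, limma adjusted p = 0.0252). Tgfbi, a secreted matrix protein named for its induction by TGF-beta, had 91.95 and 79.6 CPM against 177.1 and 198.4 CPM (1.13, SE 0.15, limma adjusted p = 0.0252). In both the lowest siBard1 library stood well above the highest nt library. Flrt3, a leucine-rich transmembrane protein that works with FGF receptors and in cell adhesion, had 6.85 and 6.44 CPM against 19.99 and 18.2 CPM (1.52, SE 0.18, limma adjusted p = 0.0252). Cdsn, the adhesive protein corneodesmosin of cornified epithelium, showed the largest of the called differences, with 54.0 and 39.6 CPM against 256.5 and 154.5 CPM (2.11, SE 0.30, limma adjusted p = 0.0410). The keratinocyte markers did not go with it, as 0 of the 4 that were tested were higher in siBard1.

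Myh11, the heavy chain of smooth muscle myosin, was at 24.0 and 24.9 CPM in nt and at 98.4 and 52.8 CPM in siBard1 (log2-fold change 1.56, SE 0.22, limma adjusted p = 0.0410). In CPM, the 2 siBard1 libraries differed from each other more than the lower one differed from nt, and without siBard1 replicate 1 the log2-fold change was 1.11. The neuronal genes were steadier. Stmn2, a stathmin that loosens microtubules in growing neurites, was at 69.96 and 70.9 CPM in nt and at 136.3 and 154.7 CPM in siBard1 (1.04, SE 0.13, limma adjusted p = 0.0252). Map6, which stabilizes microtubules, was at 13.9 and 14.3 CPM against 35.4 and 28.6 CPM (1.18, SE 0.15, limma adjusted p = 0.0252). Nmnat2, an NAD-synthesizing enzyme that keeps axons alive, was at 7.81 and 7.79 CPM against 15.85 and 16.5 CPM (1.05, SE 0.15, limma adjusted p = 0.0410). The 6 glial and neural markers tested were split. Sox10 (1.98 and 1.97 against 0.663 and 0.607 CPM) and Mbp (14.8 and 15.6 against 8.56 and 9.70 CPM) stood below nt in both siBard1 libraries, as did 4 of the 6. The neuronal markers Tubb3 (33.0 and 31.9 against 45.8 and 36.8 CPM) and Map2 (12.2 and 16.1 against 16.6 and 17.5 CPM) stood above nt in both, and none of the 6 passed the adjusted p. Slco2a1, the prostaglandin transporter, passed the adjusted p alone (82.75 and 83.3 against 154.6 and 171.7 CPM, 0.97, limma adjusted p = 0.0252).

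**Figure D2:**
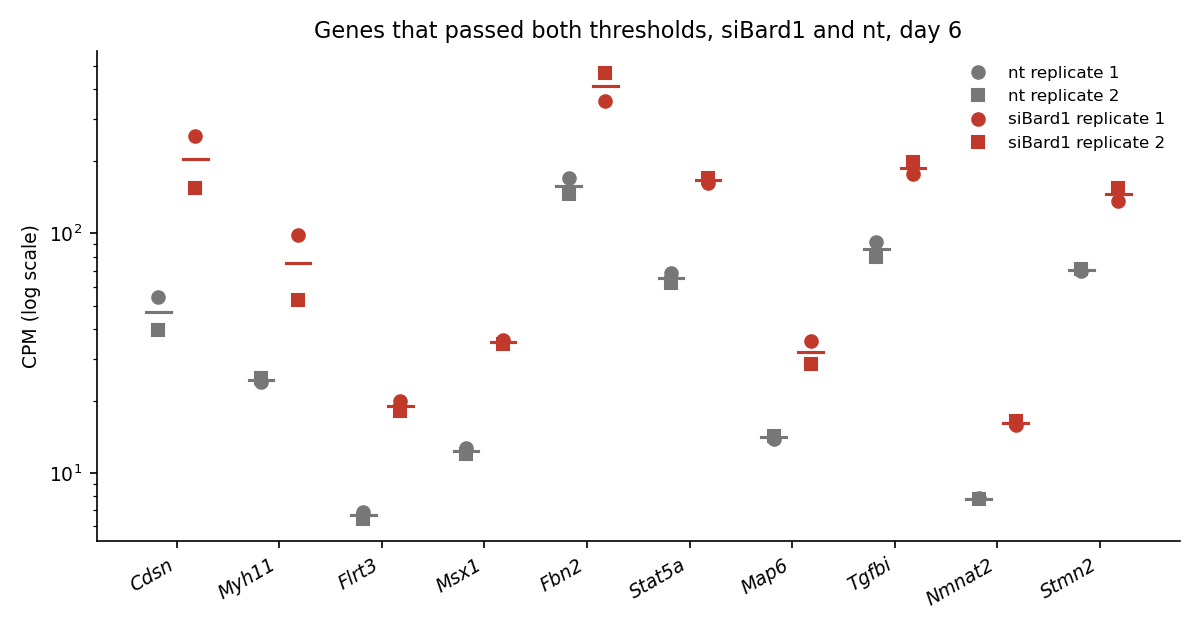
CPM on a log scale of the 10 genes that passed both thresholds, in the nt (grey) and siBard1 (red) libraries of day 6, with a line at the mean of each group. The 2 siBard1 libraries lie above the 2 nt libraries for each gene, and they lie far apart for Cdsn (256.5 and 154.5 CPM) and Myh11 (98.4 and 52.8 CPM).

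Just short of the threshold on the higher side were Nrp1, a receptor for semaphorins and VEGF, Neto2, Aqp1, a water channel, and Dpysl3. Their log2-fold changes were 0.90, 0.90, 1.15 and 0.74, each with a limma adjusted p of 0.0554. These 4 were picked among genes whose siBard1 libraries both lay above both nt libraries, so that trait is no result of its own.

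On the lower side, the genes with the smallest p whose libraries did not overlap all missed the threshold. Col25a1, a transmembrane collagen, stood at 12.3 and 13.9 CPM in nt and at 3.14 and 3.76 CPM in siBard1 (log2-fold change -1.93, SE 0.34, limma adjusted p = 0.0618). Cldn4, a tight junction claudin, stood at 43.4 and 58.98 CPM against 21.6 and 26.6 CPM (-1.08, SE 0.20, limma adjusted p = 0.0736). These and the genes that follow were picked among genes whose siBard1 libraries both lay below both nt libraries, so that trait is no result of its own. Itm2a (-0.68), Chst15 (-0.89), Rian (-0.69), Lvrn (-1.97), Pde11a (-1.51), Frem1 (-0.83), Ndrg2 (-1.21), Prtg (-1.18), Kcp (-1.34), Slc35g2 (-1.67) and Cldn3 (-1.20) followed, with limma adjusted p between 0.0694 and 0.114. An exon stretch that covers 17.9% of Chst15 is shared with Gm10584 on the other strand, and since the counting strand is not given, reads of the 2 genes cannot be told apart there.

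The groups of genes that mark the MET were read next, by counts of their members and their median beside those of all genes. The clearest was the contractile and actin cytoskeleton list, smooth muscle actin and its partners. Of its 27 genes, all tested, 26 were higher in siBard1, as were 59.4% of all genes, and 21 had siBard1 libraries above both nt libraries, against 34.2% of all genes, with none below. Its median log2-fold change was 0.63, against 0.06 over all genes. Of the 27 genes, 18 had an unadjusted p below 0.05 and 1 (Myh11) passed the adjusted p, against 0.0784% of all genes. Tpm2 (tropomyosin) stood at 65.96 and 52.8 CPM in nt and 165.3 and 97.8 CPM in siBard1, and Cnn1 (calponin) at 16.9 and 10.9 CPM against 63.4 and 26.2 CPM (log2-fold changes 1.11 and 1.58, limma adjusted p = 0.106 and 0.115). In both genes, as in Actg2 (1.70), Myl9 (1.27) and Flnc (0.63), replicate 1 of siBard1 was the higher one. The list median was 0.32 without siBard1 replicate 1 and 1.05 without siBard1 replicate 2. The fibroblast marker sum, 5642 to 5886 CPM in nt and 8808 to 8906 CPM in siBard1, was higher along with this list and with the mesenchymal and matrix lists. The epithelial list went the other way. All genes of the sum (such as Vim, Fbn1 and Postn) are members of the mesenchymal or the matrix list, so beside those lists it is no separate measure. Its part in these results was not tested.

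Collagens and other matrix genes (50 genes, all tested) had a median of 0.39, with 40 higher and 30 non-overlapping above nt (34.2% of all genes did so), and 6 non-overlapping below (17.4% of all genes). The median was 0.25 without siBard1 replicate 1. Fbn2 was the 1 member that passed. Next in p were Ltbp1, which holds latent TGF-beta in the matrix, at 242.7 and 211.3 CPM in nt and 376.4 and 385.1 CPM in siBard1 (log2-fold change 0.75, limma adjusted p = 0.0618), and Col8a1 (1.10, limma adjusted p = 0.0694). Fbn1, the main fibrillin, was at 256.4 and 256.7 against 401.6 and 399.9 CPM (0.64, limma adjusted p = 0.119), but 20.1% of its exon bases are shared with Gm9913 on the other strand. Spp1 (osteopontin), which shares 18.8% of its exon bases with Gm42793 on the same strand, went the other way, with 1631 and 1311 against 655.3 and 928.9 CPM (-0.91, limma adjusted p = 0.129). In the list of mesenchymal genes (32 tested of 34) the median was 0.32, with 27 higher, 16 non-overlapping above (34.2% of all genes) and 4 non-overlapping below (17.4% of all genes), among them Thy1 and Nt5e (-0.53 and -0.64), the 2 that were lower at an unadjusted p below 0.05. Vim, the intermediate filament of mesenchyme, was at 1372 and 1175 CPM in nt and 2289 and 2213 CPM in siBard1, and Itga5, the fibronectin receptor subunit, at 82.7 and 77.6 against 140.8 and 111.6 CPM (0.83 and 0.65, limma adjusted p = 0.133 and 0.106). No mesenchymal gene passed the adjusted p.

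The epithelial genes lay on the opposite side. Of 40 listed, 36 were tested and 31 of these were lower in siBard1, with 23 non-overlapping below nt (17.4% of all genes did so) and 2 above. The median was -0.48. By unadjusted p, 17 were lower and 0 higher, and none passed the adjusted p. The smallest p values belonged to claudins, which seal tight junctions. Beside Cldn4 and Cldn3, Cldn6 stood at 16.85 and 22.9 CPM in nt and 11.2 and 9.56 CPM in siBard1, and Cldn7 at 7.81 and 11.2 against 3.44 and 5.51 CPM (log2-fold changes -0.93 and -1.10, limma adjusted p = 0.116 and 0.154). Spint2 and Spint1, membrane inhibitors of serine proteases, had values of -0.59 and -0.72. Cdh1, E-cadherin, stood at 117.1 and 158.8 against 78.3 and 107.8 CPM (-0.57, limma adjusted p = 0.251), with both siBard1 libraries below nt. In nt this list came up between the days, with a median log2-fold change of 2.38 from day 3 to day 6, and Cldn4 went from 1.46 and 0.878 CPM to 43.4 and 58.98 CPM. Without siBard1 replicate 1 the list median was -0.30, and without siBard1 replicate 2 it was -0.70.

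Signaling genes that act on the MET showed a mixed set of leaders. In the TGF-beta, BMP and activin list (36 tested of 38) the median was 0.32, with 30 higher, 16 non-overlapping above (44.4%, against 34.2% of all genes) and 4 below (11.1%, against 17.4%). Msx1 and Tgfbi, both targets, passed. Among the ligands, Bmp4 stood at 11.3 and 10.0 CPM in nt and 28.4 and 28.4 CPM in siBard1 (log2-fold change 1.42, limma adjusted p = 0.0815) and Tgfb3 at 22.3 and 18.9 against 54.8 and 37.4 CPM (1.14, limma adjusted p = 0.0590). The activin antagonist Fst stood at 56.2 and 47.3 against 126.0 and 87.8 CPM (1.03, limma adjusted p = 0.0554), and the receptor-activated Smad3 had a value of 0.56. All groups were kept in the ALK5 inhibitor. The median of this list was 0.14 without siBard1 replicate 1. In the AP-1 and immediate early list (24 genes), 21 were higher, 16 non-overlapping above (34.2% of all genes) and 0 below, with a median of 0.33. Egr1 stood at 38.8 and 23.5 CPM in nt and 76.2 and 59.5 CPM in siBard1 (1.16), Junb had 0.69 and Fos 0.83, and none of the list passed (limma adjusted p of at least 0.106). Of the Hox genes (33 tested of 38), Hoxd13, which patterns the digits, came closest at 20.5 and 19.03 CPM in nt and 35.2 and 40.1 CPM in siBard1 (0.93, limma adjusted p = 0.0593), while Hoxb7 had -0.69. The list median of -0.16 was 0.06 without siBard1 replicate 2 and -0.31 without siBard1 replicate 1.

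**Figure D3:**
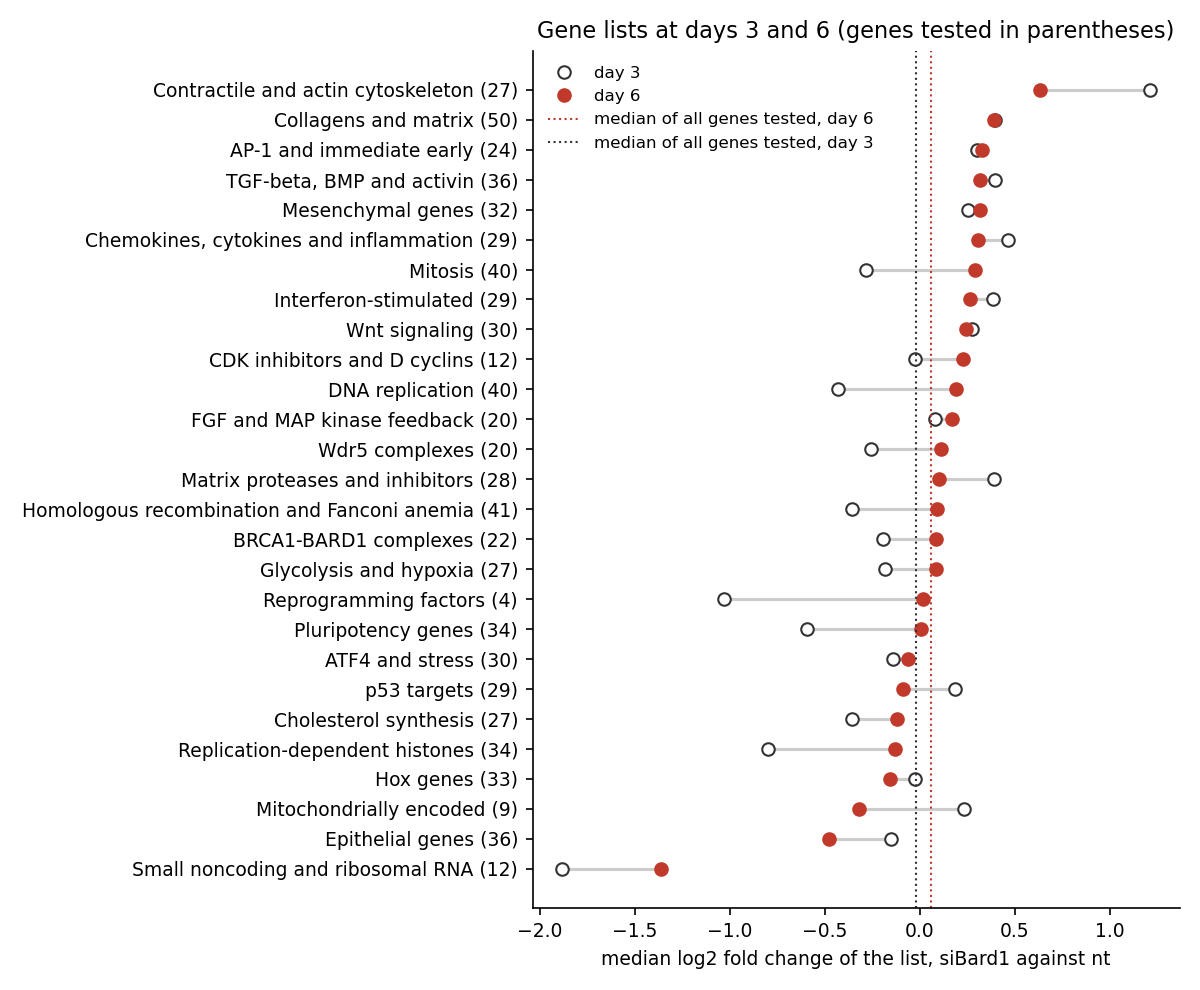
Median log2-fold change of each gene list in siBard1 against nt at day 3 (open) and day 6 (red), with the number of genes tested in parentheses and dotted lines at the medians of all genes. The contractile list lies farthest to the right at both days (1.21 and 0.63), the epithelial list lies at -0.15 and -0.48, and the mitosis, replication and reprogramming factor lists lie left of the lines at day 3 and at or right of 0 at day 6.

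Cell cycle and repair genes are given for both days side by side. Of 40 mitosis genes, 37 were higher in siBard1 at day 6 (59.4% of all genes were) and 33 were non-overlapping above nt (34.2% of all genes), with a median of 0.29, whereas the median at day 3 was -0.28. Mki67, the proliferation marker, stood at 131.1 and 151.8 CPM in nt and 224.9 and 195.1 CPM in siBard1 at day 6 (log2-fold change 0.57, limma adjusted p = 0.239), and at 425.1 and 413.7 against 354.7 and 389.2 CPM at day 3 (-0.17, limma adjusted p = 0.594). The level was thus lower at day 6 in both groups, and the siBard1 libraries passed from below to above nt. For DNA replication genes (40 tested) the medians were 0.19 at day 6 and -0.43 at day 3, with 37 higher and 27 non-overlapping above at day 6, against the same shares of all genes. The day 6 median was 0.12 with each library centred and 0.083 with quantile normalization. Rrm2, the ribonucleotide reductase subunit, had 0.57 at day 6 (limma adjusted p = 0.121) and Mcm3, of the replicative helicase, had 0.35. None of either list passed at day 6. For a single gene, the day difference did not pass the test in Mki67, Foxm1, Rrm2 or Mcm3 (limma adjusted p of 0.0820 to 0.213). In homologous recombination and Fanconi anemia (41 tested of 42) the median was 0.09 at day 6 and -0.35 at day 3. The day 6 median of this list was 0.037 to 0.15 on leaving out 1 library, 0.021 with each library centred and 0.059 with quantile normalization. The smallest p of the list at day 6 was that of Mdc1, which binds phosphorylated H2AX at breaks, with 48.2 and 51.0 against 66.5 and 65.4 CPM (0.41, limma adjusted p = 0.178). The 22 genes of BRCA1-BARD1 complexes had values between -0.24 and 0.27 and a median of 0.09. Targets of p53 (29 tested of 30) had a median of -0.09, which was 0.047 without nt replicate 1.

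The 4 reprogramming factors, whose introduced and own copies are counted together, had a median of 0.02 at day 6 (-0.25 without siBard1 replicate 2 to 0.28 without siBard1 replicate 1) and of -1.03 at day 3, where all 4 were lower with an adjusted p below 0.05. At day 6 Pou5f1 stood at 205.1 and 240.9 CPM in nt and 173.1 and 231.2 CPM in siBard1, Sox2 at 167.1 and 216.5 against 162.2 and 231.3 CPM, Klf4 at 393.5 and 494.5 against 365.6 and 536.2 CPM, and Myc at 304.5 and 391.0 against 317.2 and 435.1 CPM. The groups overlapped for all 4, and in each group replicate 2 was the higher one. Among pluripotency genes (34 tested of 42) the median was 0.01 at day 6 (-0.11 to 0.097 without the same libraries), against -0.59 at day 3. The smallest p belonged to Tfcp2l1, a naive-state factor, with 15.6 and 21.4 CPM in nt and 8.78 and 12.4 CPM in siBard1 (log2-fold change -0.81, limma adjusted p = 0.217). Trim71 and Esrrb had -0.59 and -0.65.

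The remaining lists are given by their medians, beside 0.06 for all genes, and several of these rest on single libraries. Wnt signaling (30 tested) had 0.25, FGF and MAP kinase feedback (20 tested) 0.17, CDK inhibitors and D cyclins (12 tested) 0.23, and chemokines and cytokines (29 tested) 0.31, which was 0.049 without nt replicate 2 and 0.15 without siBard1 replicate 1. The median was 0.11 for the partners of Wdr5 (20 tested), 0.09 for glycolysis and hypoxia (27 tested), -0.06 for ATF4 and stress genes (30 tested) and -0.13 for replication-dependent histones (34 tested). The histone median was 0.14 without nt replicate 1 and 0.17 without siBard1 replicate 2, and -0.38 without either of the others, and that of the ATF4 list was 0.042 without nt replicate 1 and 0.045 without siBard1 replicate 1, so neither list has a settled direction. On leaving out 1 library the medians ran from 0.16 to 0.33 for Wnt, 0.10 to 0.22 for FGF, 0.15 to 0.25 for CDK inhibitors, 0.076 to 0.15 for the partners of Wdr5 and 0.062 to 0.17 for glycolysis. Centring each library and quantile normalization gave 0.037 and 0.0074 for the partners of Wdr5, and 0.015 and 0.0073 for glycolysis. For CDK inhibitors they gave 0.16 and 0.10, and for all genes -0.013 and -0.0018. Small noncoding and ribosomal RNAs (12 tested) stood apart at -1.36. The lower ribosomal share of the siBard1 libraries is counted in part from the same transcripts and is no separate measure. Cholesterol synthesis genes (27 tested) had a median of -0.12, with 13 non-overlapping below (17.4% of all genes), led by Msmo1 (-0.34). All 9 mitochondrially encoded genes tested were non-overlapping below nt (median -0.32, and -0.20 without nt replicate 1). The lower mitochondrial share of reads is counted from these genes among others. Interferon-stimulated genes (29 tested of 43) had a median of 0.26, led by Psmb8 (1.24, limma adjusted p = 0.126), but the median was 0.024 without siBard1 replicate 2, with 17 of 29 higher, and 0.45 without siBard1 replicate 1. The median was 0.10 for matrix proteases and their inhibitors (28 tested), and 0.059 to 0.19 on leaving out 1 library. Slc2a1, the glucose transporter GLUT1, stood at 187.9 and 239.7 against 129.1 and 145.9 CPM (-0.63, limma adjusted p = 0.152). None of these genes passed the adjusted p.

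The third question was how the day 6 state relates to that of day 3, which no library shares. At day 3 the same test called 314 genes (2.24%), 222 higher (1.58%) and 92 lower (0.656%) in siBard1. Of the 222 genes higher at day 3, 175 were higher at day 6 (78.8%, against 59.4% of all genes). Among them 102 were non-overlapping above nt (45.9%, against 34.2% of all genes) and 19 below (8.56%, against 17.4%). At day 6, 3 of the 222 were called, where 0.0713% of all genes were. The median log2-fold change of the 222 was 1.21 at day 3 and 0.45 at day 6. Of the 92 lower at day 3, 62 were lower at day 6, and 32.6% were higher, against 59.4% of all genes. Among them 31 were non-overlapping below (33.7%, against 17.4% of all genes) and none was called. The median of the 92 went from -1.21 to -0.21. The genes were picked for large values at day 3, so the day 3 medians are no measure of their own. Across all genes tested, Pearson's r of the log2-fold changes of the 2 days was 0.25, as a description over genes that are not independent.

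The genes with the largest day 3 differences illustrate this. Acta1, skeletal muscle actin, had a log2-fold change of 2.06 at day 3 and 1.34 at day 6, where the siBard1 libraries stood at 13.97 and 3.999 CPM against 2.70 and 3.25 CPM in nt. Ankrd1, a stretch-responsive gene of muscle, had 2.03 and 0.90, and Alox5, the 5-lipoxygenase, had 1.99 and 0.83. Ifit1, an interferon-induced gene, had 2.18 and 1.25. Others were no longer higher: Ppp2r2c had 2.19 and -0.21, Trpv2 had 1.95 and -0.19, and the Y RNAs Rny1 and Rny3 had 2.18 and 2.97 at day 3 and -1.28 and -0.96 at day 6. Cyp1a1, a target of the aryl hydrocarbon receptor, had 1.99 and 0.09, and 1700009N14Rik had 2.01 and 0.71. The 10 largest falls at day 3 were led by ribosomal RNA transcripts (CT010467.1, Mir6236, Gm15564, Gm24187, mt-Rnr1 and mt-Rnr2, with -2.72 to -6.52 at day 3 and -1.44 to -2.49 at day 6) and by Lars2, a mitochondrial tRNA synthetase gene (-2.80 and -1.74). The share of ribosomal RNA in the libraries, given above, is counted from transcripts that include CT010467.1, Gm15564 and Gm24187, so it is no separate measure of them. Its part in other values was not tested. The remaining 3, Hrk, Zbtb16 and Sowaha, had -2.10, -1.99 and -1.97 at day 3 and -0.34, -0.47 and -0.47 at day 6. None of these 20 genes passed the adjusted p at day 6.

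**Figure D4:**
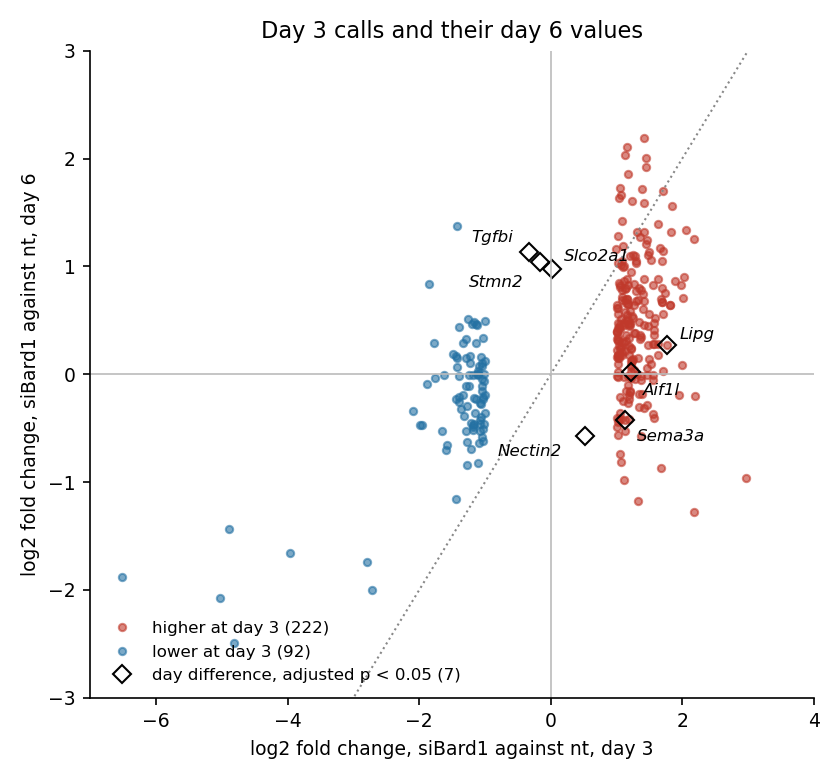
Log2-fold change of siBard1 against nt at day 3 (horizontal) and day 6 (vertical) for the 222 genes called higher (red) and the 92 called lower (blue) at day 3, with diamonds for the 7 genes whose day difference had an adjusted p below 0.05 and a dotted line of equality. Of the red points 175 lie above 0 on the vertical axis and of the blue points 62 lie below it, and Tgfbi, Stmn2 and Slco2a1 lie near 0 or below on the horizontal axis and at about 1 on the vertical one.

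A direct test of the day difference, in a model of all 16 libraries, called 6 genes (0.0428%) at both thresholds and 7 by adjusted p alone (0.0499%). Among them, 3 stood higher relative to nt at day 6 than at day 3. Tgfbi, which was at 108.6 and 112.5 CPM in nt and 96.1 and 80.9 CPM in siBard1 at day 3, had a difference of 1.46 (SE 0.20, limma adjusted p = 0.0148). Stmn2 was at 30.3 and 25.8 against 27.8 and 22.4 CPM at day 3 and had 1.21 (SE 0.20, limma adjusted p = 0.0378). Slco2a1 had 0.96 (SE 0.16, limma adjusted p = 0.0378). In siBard1 it stood at 157.9 and 146.9 CPM at day 3 and at 154.6 and 171.7 CPM at day 6. In nt it went from 145.8 and 156.1 CPM to 82.75 and 83.3 CPM, so the difference lay mostly in a lower nt level. None of these 3 was called at day 3. The other 4 had a larger siBard1 level relative to nt at day 3 than at day 6. Lipg, endothelial lipase, was at 9.57 and 8.01 CPM in nt and 32.45 and 27.5 CPM in siBard1 at day 3, and at 8.85 and 8.83 against 11.04 and 10.3 CPM at day 6 (difference -1.50, SE 0.21, limma adjusted p = 0.0148). Aif1l, an actin-bundling protein, was at 31.7 and 33.1 against 79.3 and 71.5 CPM at day 3 and at 45.5 and 45.3 against 44.5 and 47.6 CPM at day 6 (-1.20, limma adjusted p = 0.0148). Sema3a, a secreted guidance cue, was above nt at day 3 (22.4 and 27.9 against 10.2 and 12.8 CPM) and below it at day 6 (16.5 and 19.2 against 22.7 and 25.3 CPM), a difference of -1.55 (limma adjusted p = 0.0173) and the adhesion molecule Nectin2 had -1.10 (limma adjusted p = 0.0443). The called count was 0 without either nt library of day 3 or of day 6 or without siBard1 replicate 2 of day 6, 3 without siBard1 replicate 2 of day 3, and 20 without siBard1 replicate 1 of day 6.

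The last question was whether the siBard1 libraries of day 6 differed from those of the other knockdowns. Against siBrca1, which targets the partner, no gene was called (0 by limma, with 725 genes at an unadjusted p below 0.05, and 0 by limma-voom). The count was 1 without siBard1 replicate 1 and 1 without siBrca1 replicate 2. The smallest adjusted p belonged to Msx1 and Stmn2. Msx1 stood at 11.5 and 12.9 CPM in siBrca1 and 35.9 and 34.4 CPM in siBard1, a difference of 1.53 on the log2 scale (95% interval 1.12 to 1.94, limma adjusted p = 0.0552). Stmn2 stood at 69.6 and 65.95 CPM in siBrca1 and 136.3 and 154.7 CPM in siBard1, a difference of 1.10 (0.80 to 1.40, limma adjusted p = 0.0552). In both genes siBrca1 lay near nt. For Myh11 the difference was -0.15 (-0.65 to 0.34), for Nmnat2 -0.17 (-0.50 to 0.16), for Cdsn 0.94 (0.26 to 1.60) and for Stat5a 0.82 (0.53 to 1.10). These intervals are not adjusted for the number of genes.

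Against siWdr5, 54 genes were called (0.385%), 16 higher and 38 lower in siBard1. Msx1 and Stmn2 were again among the higher ones, by 1.64 and 1.44 (limma adjusted p = 0.00696 and 0.00390), with siWdr5 levels of 13.6 and 9.37 CPM and of 60.3 and 47.6 CPM. Of the other genes called against nt, none differed between siBard1 and siWdr5 with an adjusted p below 0.05. Tgfbi (0.10, interval -0.22 to 0.43), Map6 (-0.14, -0.48 to 0.21) and Myh11 (-0.13, -0.63 to 0.36) had intervals around 0. Further members of the lists, chosen here after their values were seen, were Postn (periostin), at 69.9 and 136.9 CPM in siBard1 and 24.3 and 24.8 CPM in siWdr5 (1.99, limma adjusted p = 0.0137), and the Wnt antagonist Sfrp2, at 26.9 and 22.5 against 81.9 and 91.3 CPM (-1.81, limma adjusted p = 0.00390). The count was 231 without siBard1 replicate 1, 13 without siBard1 replicate 2, 10 without siWdr5 replicate 1 and 0 without siWdr5 replicate 2.

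**Figure D5:**
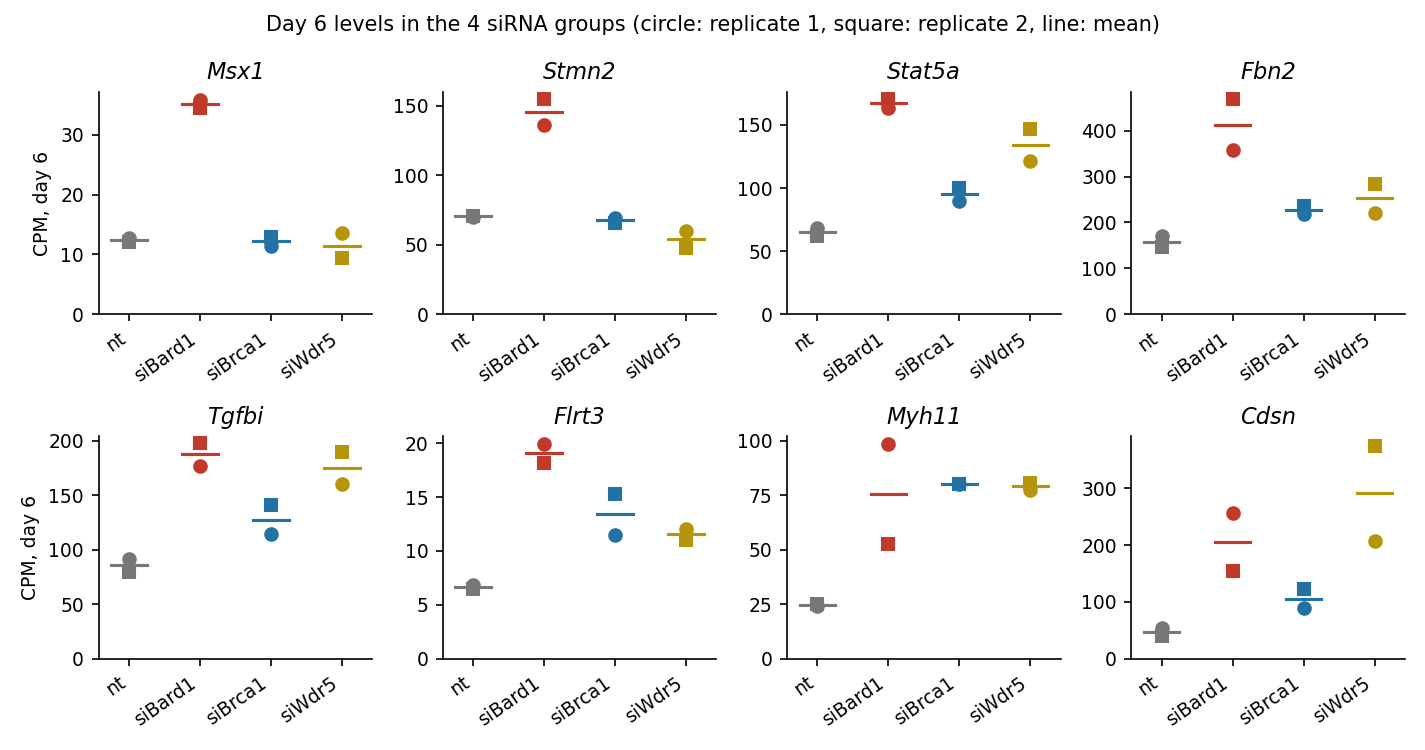
CPM at day 6 of 8 of the genes called in siBard1 against nt, in the 2 libraries of nt, siBard1, siBrca1 and siWdr5 (circle for replicate 1, square for replicate 2, line at the mean). For Msx1 and Stmn2 the siBard1 libraries stand above those of the other 3 groups. Stat5a, Fbn2, Tgfbi, Flrt3, Myh11 and Cdsn are also above both nt libraries in both libraries of siBrca1 and of siWdr5.

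The 3 comparisons with nt share the same 2 nt libraries, so their values are only set side by side. For Msx1 the log2-fold changes against nt were 1.51 in siBard1, -0.02 in siBrca1 and -0.13 in siWdr5. For Stat5a they were 1.36, 0.54 and 1.04, for Fbn2 1.38, 0.52 and 0.67, for Tgfbi 1.13, 0.57 and 1.03, and for Cdsn 2.11, 1.17 and 2.59. Myh11 had 1.56, 1.72 and 1.69. In all, 10 genes were called in siBard1, 0 in siBrca1 (1123 at an unadjusted p below 0.05) and 678 in siWdr5 at day 6 (4.83%), of which 467 were higher (3.33% of the genes tested).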

How the data were processed

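The 16 libraries (nt, siBard1, siBrca1 and siWdr5, days 3 and 6, 2 per group) were made by the authors from ribosome-depleted total RNA (KAPA RNA HyperPrep with RiboErase) and sequenced paired-end. Per the submitters' processing notes, reads were aligned to mm10 (GRCm38) with STAR 2.5.2b and log2 CPM values were computed by the authors with edgeR 3.20.9. The deposited values are log2 CPM, already scaled between libraries and raised by a small prior. The read counter, its strand setting, the annotation and the filter are not given in the sources used here. All sample columns were used.

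CPM in the text is 2 to the power of the deposited value. Whole reads were recovered from the steps between low values (100% whole) and gave the depths. A level of 3 reads corresponds to 0.141 to 0.240 CPM in the nt and siBard1 libraries of day 6, a floor that covers counting error only.

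The test took the 14028 genes whose average log2 CPM in the 16 columns was 0 or more and left out 4962. limma 3.58.1 in R 4.3.3, with a variance trend, was fitted to the 8 libraries of day 6 with 1 mean per group, and to all 16 for the day difference. P-values are two-sided and Benjamini-Hochberg adjusted over all genes tested. A call needed an adjusted p below 0.05 together with a log2-fold change beyond 1 in either direction. With 2 libraries per group, p-values measure the spread between these libraries.

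The genes named are Bard1, Brca1 and Wdr5, the 15 largest rises and 15 largest falls whose libraries do not overlap (filled by smallest adjusted p, unnamed gene models left out), the leading members of the lists, and the 10 largest rises and falls at day 3. Members and lists were chosen with earlier results of these data known. List members without a row (29 symbols over the functional lists) or below the filter (59) are not counted. The steps were tested on simulated data. The alternatives were no filter and a higher one, other sets of libraries in the model, no trend, pseudocounts of 1 and 0.1 CPM, 2 other scalings, no fold threshold, limma-voom on recovered reads, a replicate block and leaving out each library. The authors' own calls, made with DESeq2, were not used. Results for some genes are not reported here.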

Additional observations from a re-analysis of the deposited data

Results flagged for a closer look

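The siBard1 effect differed between day 6 and day 3, by the direct test of that difference, for 6 genes at both thresholds and 7 by adjusted p alone (limma, 16 libraries). It was larger at day 6 for Tgfbi (1.46), Stmn2 (1.21) and Slco2a1 (0.96), and smaller for Sema3a (-1.55), Lipg (-1.50), Aif1l (-1.20) and Nectin2 (-1.10), all on the log2 scale. The siBard1 libraries lay on the same side of both nt libraries in both replicates for Lipg at each day, and for Tgfbi on opposite sides at the 2 days. With 2 libraries per group, no group was large enough to look for single outlying samples.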

How the results depend on the processing

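The count of 10 genes called in siBard1 against nt at day 6 was 17 with the filter raised to a mean log2 CPM of 2, 75 (66 higher, 9 lower) with all 16 libraries in the model, 6 when libraries were centred on their median gene, 1 with quantile normalization, 6 with limma-voom, 0 without the variance trend and 9 to 13 under the remaining settings that keep every library of the 2 groups, other than the replicate block (33). Leaving out 1 library gave 0 to 51. The Bard1 log2-fold change was -0.053 to 0.26 on leaving out 1 library and turned negative without nt replicate 1. The 6 genes of the day difference became 184 with only nt and siBard1, 2 without the trend, 26 when centred, 16 with quantile normalization and 0 to 20 on leaving out 1 library. Against siBrca1 the count was 1 with all 16 libraries and 0 to 1 on leaving out 1 library. Against siWdr5 the 54 became 83 without the fold threshold, 201 with all 16 libraries, 0 without the trend, 122 with limma-voom and 0 to 231 on leaving out 1 library. Where leaving out 1 library changed a count, fewer samples entered the model, and the lone sample was assumed to vary like the other groups. For the other changes the cause was not tested. With a replicate block the counts were 33 (29 higher, 4 lower) at day 6, 46 for the day difference, 2 against siBrca1 and 108 against siWdr5. The labels give only shared numbers, and same-numbered libraries of day 6 deviated together with correlations of -0.0696 to 0.260, so the numbers were not taken as pairs.

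The 10 genes called at day 6 kept their direction in all 16 alternatives, which is no measure of how firm the calls are. Their siBard1 libraries all lay above both nt libraries, so leaving out 1 library could not turn the direction. Changes of filter or variance model do not move the log2-fold change. Of 1576 values of 106 named genes, 1405 kept direction and side of the adjusted p threshold, 66 lost the pass, 78 gained it and 27 changed sign. The 66 all belonged to the 11 genes that passed the adjusted p in the main fit, as only these could lose it. Nmnat2 lost it in 10 of its 16 alternatives, Myh11 in 8 and Stat5a in 3. The sign changes were in genes with small or variable differences. Centring gave -0.047 for Sox2, -0.067 for Klf4 and -0.053 for Aif1l. Quantile normalization gave -0.061 for Wdr5, -0.11 for Sox2, -0.0925 for Klf4, -0.054 for Myc and -0.086 for Aif1l. With limma-voom, Cyp1a1 had -0.092 and Klf4 -0.0055. On leaving out 1 library, the values ran from -0.041 to 0.32 for Brca1, -0.0902 to 0.24 for Wdr5, -2.35 to 0.43 for Rny3, -0.93 to 1.10 for Cyp1a1, -0.76 to 0.38 for Trpv2, -0.83 to 0.14 for Hrk, -0.36 to 0.057 for Pou5f1, -0.23 to 0.28 for Sox2, -0.27 to 0.28 for Klf4, -0.12 to 0.33 for Myc and -0.028 to 0.068 for Aif1l. The fit to the 6 libraries without siWdr5 (9 genes called) and the list medians without a siBard1 library were chosen after seeing the data.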
